A study of Homo sapiens with 36 samples.

Results

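A549 cells kept in cigarette smoke extract (CSE) at 5% for 5 weeks were compared with A549 cells kept in CSE at 1% for the same time. The comparison used 6 of the 36 arrays of the series, the 3 labelled CSE 5% at 5 weeks and the 3 labelled CSE 1% at 5 weeks, and asked which genes followed the strength of the extract once both cultures had been exposed for weeks. CSE was medium through which cigarette smoke had been bubbled, and the percentages give its share of the medium. Before exposure the cells were grown to near confluence and left without serum. During exposure both groups were kept in DMEM with little fetal bovine serum, received fresh CSE medium daily and were subcultured weekly. All genes with 1 symbol were described, 18417 in number, from 33297 transcript clusters. No unexposed cells enter this comparison, so a gene that responded alike at both concentrations does not appear in it. A549 is a single line from a human lung adenocarcinoma, and findings in it are findings in 1 tumour line. The study calls its replicates individual experiments.

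Cigarette smoke carries polycyclic hydrocarbons that activate the aryl hydrocarbon receptor, oxidants that activate NRF2, and particles and aldehydes that set off inflammatory signalling. NF-kB, a family of transcription factors held in the cytoplasm by inhibitors until a stimulus destroys them, drives chemokines that call neutrophils and monocytes into the airway, and also drives genes that shut the signal off. Epithelial cells under long stress can lose adhesion proteins and keratins and gain mesenchymal genes, a change in which TGF-β and the integrins that release it from its latent form take part.

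The values were log2 levels per transcript cluster, the unit into which Human Gene 1.0 ST arrays join the probes of a gene. The medians of the 6 arrays lay between 6.79 and 6.83. Correlations across transcript clusters lay between 0.992 and 0.996 within CSE 5%, between 0.985 and 0.993 within CSE 1%, and between 0.980 and 0.993 across the groups. The median SD of a gene within a group was 0.102 with CSE 5% and 0.138 with CSE 1%, and the lowest correlation within CSE 1% was that of replicates 1 and 3. The mean level of 30 centrosome and Golgi coiled-coil genes, which no part of the design addresses, was 8.16, 7.98 and 8.02 with CSE 5%, against 7.30, 7.68 and 8.13 with CSE 1%, so CSE 1% replicate 3 lay with the CSE 5% arrays and replicate 1 lay lowest. Epithelial keratins were among the brightest genes, with KRT18 at 13.20 ± 0.072 with CSE 5% and 13.34 ± 0.086 with CSE 1% (SD, n = 3 each). The surfactant genes that define alveolar type II cells were dim, with SFTPC at 6.15 ± 0.13 with CSE 5% and 6.23 ± 0.087 with CSE 1%. Of the defining genes of other cells, PTPRC of leukocytes was at 3.92 ± 0.11 with CSE 5% and 3.93 ± 0.054 with CSE 1% and DCN of fibroblasts at 3.91 ± 0.075 with CSE 5% and 4.04 ± 0.16 with CSE 1%, near the bottom of the scale. Means over the marker lists lay between 5.35 and 5.45 on both groups' arrays for 10 fibroblast genes and between 5.82 and 5.94 for 9 leukocyte genes. In the test described next, none of 10 fibroblast genes passed (limma; 1 at an unadjusted p under 0.05) and none of 10 endothelial genes (0 at that limit). Of 9 leukocyte genes CD68 and ITGAM were higher, by 0.54 and 0.35 on the log2 scale (adjusted p = 0.0104 and 0.0410), and ITGAM lost its call whichever of the 6 arrays was left out (adjusted p from 0.0503 to 0.133). The 2 genes are also expressed outside leukocytes, and the part of other cells in the results was not tested.

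A linear model fitted with limma to the 27 arrays of exposed cells, with a mean for each of 9 groups, gave every difference, written as log2 level with CSE 5% minus log2 level with CSE 1% and followed by its SE. Of 33297 transcript clusters, 73 (0.219%) were higher with CSE 5% by more than 1 on the log2 scale with B, the log odds of a change, above 0. There were 23 transcript clusters (0.0691%) lower by the same rule. Of 18417 genes named by 1 symbol, 861 (4.68%) were higher and 460 (2.5%) were lower at a Benjamini-Hochberg adjusted p under 0.05, the call used for single genes from here on. At an unadjusted p under 0.05 in limma, 2617 of the 18417 were higher and 1804 lower. Bracketed counts of list members at that limit are read beside these numbers. The groups did not overlap for 852 of the 861 genes and for 448 of the 460, whereas over all genes 11.1% lay wholly above and 9.38% wholly below. The median difference over all genes was -0.012. Differences ran from -2.03 to 2.19, and their median was 0.49 among the genes called higher and -0.43 among those called lower. The counts depended on single arrays and on the arrays that shared the estimate of the spread. Without CSE 1% replicate 3 there were 195 transcript clusters higher, 1906 genes higher and 1037 lower. Without CSE 5% replicate 1 the genes were 470 and 255, without CSE 1% replicate 1 they were 552 and 225, and the genes lower were 301 without CSE 5% replicate 2 and 268 without CSE 1% replicate 2. Each SE came from the spread within all 9 groups and not from the 6 arrays alone. For CP, described below, the SD was 0.85 within CSE 1% and 0.088 within CSE 5%, and the SE was 0.27. A fit to the 6 arrays alone has far fewer degrees of freedom and uses only the spread of those arrays. It called 102 genes higher and 44 lower, and 53 and 23 transcript clusters. The part of each in the smaller counts was not tested. Calls that this stricter fit did not keep are named with each group of genes below. List counts given below for a fit without 1 array are read beside the counts over all genes in the same fit.

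**Figure D1:**
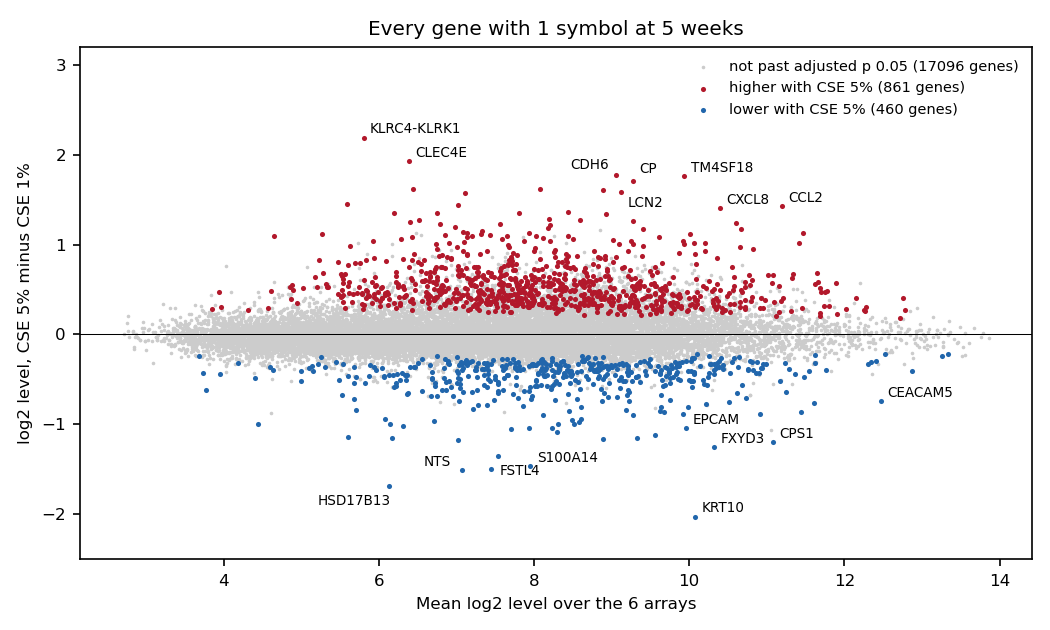
Each point is 1 of 18417 genes, at its mean log2 level over the 6 arrays (x axis) and its log2 level with CSE 5% minus that with CSE 1% at 5 weeks (y axis). The 861 genes higher with CSE 5% (red) and 460 lower (blue) at an adjusted p under 0.05 spread over most of the range of levels, and KLRC4-KLRK1 at 2.19 and KRT10 at -2.03 are the extremes of the differences.

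The genes with the largest differences upward were a mixed group of membrane receptors, secreted proteins and adhesion molecules. CLEC4E, a C-type lectin receptor known from macrophages, had log2 levels of 7.79, 7.15 and 7.11 with CSE 5%, against 5.29, 5.56 and 5.41 with CSE 1%. Its groups lay more than 1 log2 unit apart, a difference of 1.93 ± 0.19 (SE; 3.82-fold, adjusted p = 7.50e-07). CDH6, a cadherin of the developing kidney and of some tumours, had 9.93, 9.83 and 10.06 with CSE 5%, against 7.89, 8.32 and 8.30 with CSE 1%, and the difference was 1.77 ± 0.13 (3.41-fold, adjusted p = 8.86e-09). LCN2, a secreted lipocalin that binds bacterial siderophores, had 10.26, 9.90 and 9.58 with CSE 5%, against 8.64, 8.29 and 8.05 with CSE 1%. All 3 CSE 5% arrays lay above all 3 CSE 1% arrays for each of these genes, which the rule that named them required. Other large differences were those of the neurotrophin-3 receptor NTRK3 (1.62 ± 0.11), the glutaminyl cyclase QPCT (1.60 ± 0.12), the ether lipid-cleaving monooxygenase AGMO (1.62 ± 0.12), the cytoskeletal regulator NAV3 (1.57 ± 0.10) and DOCK10, an exchange factor for small GTPases (1.44 ± 0.095). In the fit to the 6 arrays CLEC4E, CDH6, LCN2, NTRK3, QPCT, AGMO, NAV3 and DOCK10 kept their calls.

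A second set of large differences rested on CSE 1% arrays that were far apart. CP, which encodes the copper ferroxidase ceruloplasmin, had 10.16, 10.20 and 10.03 with CSE 5%, against 7.59, 8.39 and 9.28 with CSE 1%. TM4SF18, a tetraspanin-like membrane protein, had 10.94, 10.87 and 10.65 with CSE 5%, against 8.30, 8.96 and 9.91 with CSE 1%, and TMEM47, a protein of cell junctions, had 9.28, 9.10 and 8.97 with CSE 5%, against 7.29, 7.55 and 8.44 with CSE 1%. In these genes CSE 1% replicate 3 lay closest to the CSE 5% arrays and replicate 1 lay farthest, the same order as in the centrosome and Golgi genes, whose part in the result was not tested. Among genes described below, CXCL8, TNFSF10, IFNGR1, SLFN5, MMP7, ZEB1, ITGAV, ITGB6, FASN, PLK1, DUSP1 and EGR1 are examples of this order. Examples of the reverse are C3, TGFB1, FN1, TGFBI, EPCAM and NTS. The genes with either order were not counted. KLRC4-KLRK1, the largest difference of all, had 7.06, 6.85 and 6.80 with CSE 5%, against 4.13, 4.32 and 5.67 with CSE 1%. It is annotated as a readthrough of neighbouring natural killer receptor genes, and KLRC3, a close relative, differed by 1.45 ± 0.16. Probes of such near-identical genes cannot be assigned with certainty to 1 member. The differences were 1.71 ± 0.27 for CP, 1.76 ± 0.26 for TM4SF18, 1.36 ± 0.19 for TMEM47 and 2.19 ± 0.36 for KLRC4-KLRK1 (adjusted p = 3.75e-04, 1.13e-04, 7.31e-05 and 4.74e-04). In the fit to the 6 arrays alone KLRC3 kept its call and CP, TM4SF18, TMEM47 and KLRC4-KLRK1 did not (adjusted p from 0.0542 to 0.109).

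Chemokines that attract neutrophils and monocytes were among the genes higher with CSE 5%. Of 14 chemokine genes measured, 5 were higher and 1 was lower, against 4.68% and 2.5% of all genes, and the median of the list was 0.096. CCL2, which recruits monocytes, had log2 levels of 12.04, 11.89 and 11.83 with CSE 5%, against 10.50, 10.54 and 10.41 with CSE 1%. The groups did not overlap, as a rule that named CCL2 required, and the difference was 1.43 ± 0.11 (2.70-fold, 95% interval of the log2 difference 1.19 to 1.67, adjusted p = 4.08e-08). CXCL8, the main neutrophil attractant of human airways, had 11.07, 11.17 and 11.04 with CSE 5%, against 9.39, 9.70 and 9.97 with CSE 1%, so the lowest CSE 5% array lay more than 1 log2 unit above the highest CSE 1% array. CXCL8 differed by 1.40 ± 0.12 (2.65-fold, adjusted p = 1.46e-07). CXCL1 had 11.11, 11.35 and 11.22 with CSE 5%, against 10.08, 10.09 and 9.80 with CSE 1% and CXCL5 had 11.43, 11.23 and 11.25 with CSE 5%, against 10.12, 10.48 and 10.46 with CSE 1%. Both act on the same neutrophil receptor as CXCL8, and they differed by 1.24 ± 0.10 and 0.95 ± 0.085 (adjusted p = 7.01e-08 and 1.84e-07). CXCL2, of the same family, differed by 0.79 ± 0.11 (adjusted p = 9.73e-05). CCL28, a mucosal chemokine for lymphocytes named because it is the only member that was lower, differed by -0.63 ± 0.12 (adjusted p = 0.00202). When only the 6 arrays were fitted, CCL2, CXCL8, CXCL1, CXCL5 and CXCL2 kept their calls and CCL28 did not (adjusted p = 0.0928).

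Other cytokines were higher in part. Of 15 interleukins, colony-stimulating factors and TNF ligands measured, 5 were higher and none lower (limma; 1 at an unadjusted p under 0.05), with a list median of 0.092. IL1A, an alarmin that epithelial cells store and release on injury, had 7.24, 7.12 and 7.10 with CSE 5%, against 5.64, 6.04 and 5.94 with CSE 1%, and the difference was 1.28 ± 0.097 (2.43-fold, adjusted p = 1.43e-08). TNFSF10, the death ligand TRAIL, had 7.74, 7.63 and 7.45 with CSE 5%, against 6.03, 6.66 and 7.04 with CSE 1%. TNFSF10 differed by 1.03 ± 0.18, the inflammatory cytokine IL32 by 0.71 ± 0.12, the macrophage growth factor CSF1 by 0.66 ± 0.098 and TNFSF15, of the TNF family, by 0.65 ± 0.12 (adjusted p = 7.49e-04, 6.46e-04, 1.63e-04 and 0.00113). IL6 was dim, at 4.64 ± 0.19 with CSE 5% and 4.61 ± 0.083 with CSE 1%, and IL1B differed by 0.40 ± 0.14 without passing the test (adjusted p = 0.104). These 2 genes are named as familiar members of the list and not by the rule for named genes. With the 6 arrays alone, IL1A kept its call and TNFSF10, IL32, CSF1 and TNFSF15 did not (adjusted p from 0.0601 to 0.133).

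**Figure D2:**
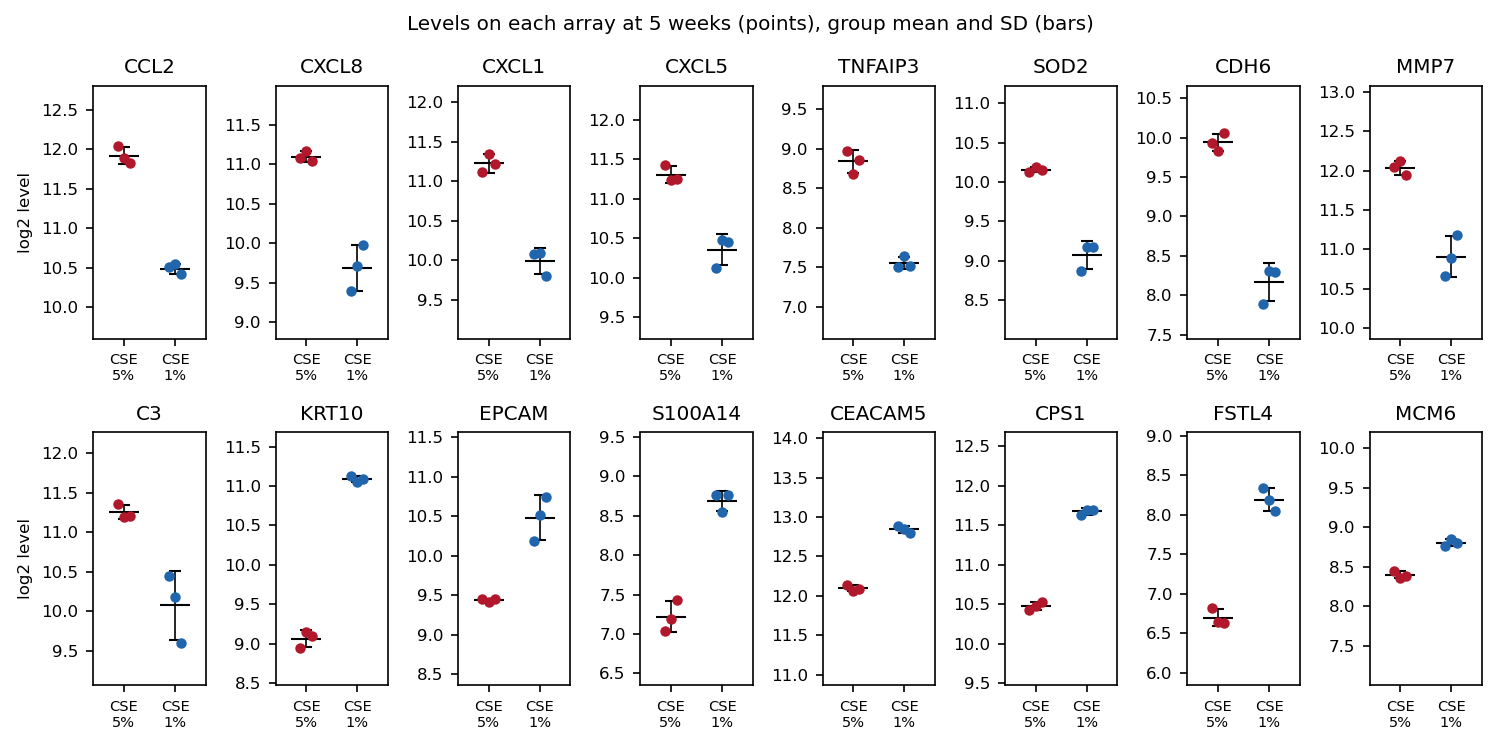
Log2 levels (y axis, each panel spanning the same number of units) on the 3 arrays with CSE 5% (red, left) and the 3 with CSE 1% (blue, right) at 5 weeks, with the group mean and SD as bars. The first 9 genes were higher with CSE 5% and the last 7 were lower, and in no panel do the groups overlap, a condition by which some of these genes were named. CXCL8, MMP7, C3 and EPCAM show the wider spread of the CSE 1% arrays.

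Of 16 NF-kB subunits and feedback targets, 5 were higher and none lower (limma; 0 at an unadjusted p under 0.05), and the list median was 0.31. The 5 were products that NF-kB induces rather than its subunits. TNFAIP3, the ubiquitin-editing enzyme A20 that ends NF-kB signalling, had 8.97, 8.69 and 8.85 with CSE 5%, against 7.50, 7.64 and 7.51 with CSE 1%, a difference of 1.29 ± 0.093 (2.44-fold, adjusted p = 8.15e-09). SOD2, the mitochondrial superoxide dismutase, had 10.13, 10.19 and 10.15 with CSE 5%, against 8.87, 9.18 and 9.18 with CSE 1%, a difference of 1.08 ± 0.098. The CSE 5% arrays of SOD2 lay within 0.1 of each other on the log2 scale, and the CSE 1% arrays all lay lower. NFKBIZ, a nuclear co-regulator of NF-kB, differed by 0.78 ± 0.078, TNFAIP2 by 0.46 ± 0.092 and NFKBIA, the inhibitor IkBα, by 0.41 ± 0.093 (adjusted p = 9.15e-07, 0.00327 and 0.0104). In the smaller fit TNFAIP3, SOD2 and NFKBIZ kept their calls and TNFAIP2 and NFKBIA did not (adjusted p from 0.190 to 0.250).

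The promoters of 4 of these chemokines and of 2 NF-kB feedback genes held the same 9 letters of an NF-kB site, and their sequences are shown for that reason. No promoter entry was available for CCL2, so it was not searched. Of the 5 NF-kB feedback genes that were higher, 2 held the letters, and TNFAIP3, SOD2 and TNFAIP2 did not. The motif GGAATTTCC was searched on both strands from 250 bases before to 50 after the annotated start in RefSeq (GRCh38.p14), and a 7-letter AP-1 motif, TGACTCA, was searched the same way. Both motifs were chosen after the differences had been seen, and a match is a description of the letters and not evidence of binding. GGAATTTCC stood in 129 of 27305 promoters (0.472%) and in 63 of the 14239 found for genes on the array (0.442%). It stood in 8 of the 705 promoters found for genes higher with CSE 5% (1.13%) and in 2 of the 338 found for genes lower (0.592%). MSRB3 and OPTN, whose promoters are not shown, are among the 8. TGACTCA stood in 4.92% of all promoters and in 3.55% of those of genes on the array. It stood in 6.24% of those of genes higher and in 2.37% of those of genes lower. Each sequence below runs from 150 bases (NFKBIZ 250 bases) before the start up to the start, in the direction of the gene, with motif matches in capitals. CXCL8 (chr4:73740419-73740568, plus strand) carries TGACTCA 137 bases and GGAATTTCC 91 bases before the start. In CXCL1 (chr4:73869243-73869392, plus strand), CXCL5 (chr4:73998678-73998827, minus strand) and CXCL2 (chr4:74099196-74099345, minus strand), neighbours of CXCL8 on chromosome 4, GGAATTTCC begins 78, 90 and 77 bases before the start. In NFKBIA (chr14:35404750-35404899, minus strand) it lies 81 bases before the start on the opposite strand, where it reads GGAAATTCC along the gene. In NFKBIZ (chr3:101827740-101827989, plus strand) it begins 222 bases before the start. CXCL1 and CXCL2 read almost alike around the motif, and the match in one is therefore not separate from that in the other.
CXCL8: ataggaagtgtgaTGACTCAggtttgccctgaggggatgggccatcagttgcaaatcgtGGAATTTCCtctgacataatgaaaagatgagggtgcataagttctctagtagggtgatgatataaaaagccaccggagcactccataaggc
CXCL1: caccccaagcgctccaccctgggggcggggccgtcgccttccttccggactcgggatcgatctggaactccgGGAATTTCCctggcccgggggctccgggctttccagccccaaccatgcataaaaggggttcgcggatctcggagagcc
CXCL2: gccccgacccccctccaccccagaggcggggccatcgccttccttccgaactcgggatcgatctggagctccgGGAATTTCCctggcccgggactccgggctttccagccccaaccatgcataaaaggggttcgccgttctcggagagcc
CXCL5: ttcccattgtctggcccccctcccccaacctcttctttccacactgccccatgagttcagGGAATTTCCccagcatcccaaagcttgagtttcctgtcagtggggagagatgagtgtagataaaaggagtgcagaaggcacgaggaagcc
NFKBIA: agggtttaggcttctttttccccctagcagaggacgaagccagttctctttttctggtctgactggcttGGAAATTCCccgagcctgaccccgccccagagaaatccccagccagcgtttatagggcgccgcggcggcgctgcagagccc
NFKBIZ: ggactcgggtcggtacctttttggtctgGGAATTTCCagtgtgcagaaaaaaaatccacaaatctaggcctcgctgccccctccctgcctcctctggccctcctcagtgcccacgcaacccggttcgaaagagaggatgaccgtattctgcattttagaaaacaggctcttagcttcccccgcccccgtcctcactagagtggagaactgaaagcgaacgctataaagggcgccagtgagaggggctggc

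Receptors for these signals were higher more often than lower. Of 20 cytokine and interferon receptor genes, 7 were higher and none lower (limma; 0 at an unadjusted p under 0.05), with a median of 0.26. IFNGR1, the ligand-binding chain of the interferon-γ receptor, had 10.45, 10.63 and 10.62 with CSE 5%, against 9.25, 9.54 and 9.85 with CSE 1%, a difference of 1.02 ± 0.12 (adjusted p = 8.32e-06). The interferon-α receptor chain IFNAR2, the death receptor TNFRSF21 and the interleukin-1 receptor IL1R1 differed by 0.55 ± 0.075, 0.62 ± 0.076 and 0.45 ± 0.079 (adjusted p = 5.66e-05, 1.24e-05 and 0.00110). IL1R1 did not pass when the 9 control arrays joined the fit. Of 25 interferon-stimulated genes, 8 were higher (5 without CSE 5% replicate 3) and 1 was lower (2 without CSE 1% replicate 3), with a median of 0.15. SLFN5, which restrains interferon-driven transcription, had 10.48, 10.43 and 10.39 with CSE 5%, against 9.08, 9.37 and 9.75 with CSE 1%, a difference of 1.04 ± 0.17 (adjusted p = 3.46e-04). IFI6 differed by 0.90 ± 0.15, the RNA-binding antiviral protein IFIT2 by 0.81 ± 0.11 and the transcription factor IRF9 by 0.54 ± 0.10 (adjusted p = 5.06e-04, 8.63e-05 and 0.00275). OAS1, which makes the activator of an antiviral RNase, went the other way, with 9.87, 9.73 and 9.70 with CSE 5%, against 10.36, 10.18 and 10.30 with CSE 1%, a difference of -0.51 ± 0.08 (adjusted p = 2.55e-04). When the 6 arrays were fitted on their own, IFNGR1, SLFN5 and IFIT2 kept their calls and IFNAR2, TNFRSF21, IL1R1, IFI6, IRF9 and OAS1 did not (adjusted p from 0.0745 to 0.208).

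Early components of the complement cascade were higher as well. Of 17 complement genes, 5 were higher and 2 were lower, with a median of 0.095. C3, the protein on which all complement pathways meet, had 11.36, 11.19 and 11.21 with CSE 5%, against 10.45, 10.18 and 9.59 with CSE 1%, with CSE 1% replicate 3 lowest, a difference of 1.18 ± 0.16 (adjusted p = 5.95e-05). CFB, the protease of the alternative pathway, had 9.65, 9.63 and 9.77 with CSE 5%, against 8.76, 8.84 and 8.65 with CSE 1% and differed by 0.93 ± 0.11 (adjusted p = 1.05e-05). C1R and C1S, the proteases that start the classical pathway, had differences of 0.85 ± 0.094 and 0.80 ± 0.11 (adjusted p = 3.54e-06 and 6.81e-05). Among regulators on the cell surface, CD59, which blocks the lytic pore, was higher by 0.31, and CD55, which speeds the decay of convertases, was lower, at -0.40 ± 0.087 (adjusted p = 0.00461 and 0.00710). CFD, the protease that activates CFB, was lower, at -0.47 ± 0.12 (adjusted p = 0.0301), and lost its call when CSE 5% replicate 1, 2 or 3 or CSE 1% replicate 1 or 2 was left out (adjusted p from 0.0574 to 0.214). CD55 and CFD are named because they are the 2 members that were lower. Of these genes, fitted to the 6 arrays, CFB, C1R and C1S kept their calls and C3, CD59, CD55 and CFD did not (adjusted p from 0.0633 to 0.288). The 21 fibrinogen chains and plasma proteins held 2 higher and 2 lower. CPB2, an inhibitor of clot lysis, differed by 1.06 ± 0.14, the retinol carrier RBP4 by 0.70 ± 0.18, and the fibrinogen chains FGB and FGA by -0.99 ± 0.16 and -0.54 ± 0.1 (adjusted p = 4.80e-05, 0.0198, 3.21e-04 and 0.00160). RBP4 lost its call when CSE 5% replicate 1 or CSE 1% replicate 2 was left out (adjusted p from 0.0755 to 0.162), and with 6 arrays CPB2 kept its call and RBP4, FGB and FGA did not (adjusted p from 0.0978 to 0.171).

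KRT10, a type I keratin of stratified epithelium, had the largest difference downward, and genes of epithelial surfaces were also lower with CSE 5%. KRT10 had 8.94, 9.15 and 9.10 with CSE 5%, against 11.13, 11.05 and 11.09 with CSE 1%, so that the groups lay nearly 2 log2 units apart. Its difference was -2.03 ± 0.095 (adjusted p = 1.50e-11). EPCAM, the epithelial cell adhesion molecule, had 9.45, 9.42 and 9.45 with CSE 5%, against 10.19, 10.52 and 10.74 with CSE 1%, a difference of -1.05 ± 0.12 (adjusted p = 3.97e-06). S100A14, a calcium-binding protein of epithelia, had 7.04, 7.19 and 7.43 with CSE 5%, against 8.77, 8.54 and 8.76 with CSE 1%, a difference of -1.47 ± 0.096 (adjusted p = 2.60e-09). FXYD3, a regulator of the sodium pump, had 9.75, 9.65 and 9.68 with CSE 5%, against 11.002, 10.89 and 10.95 with CSE 1%, a difference of -1.25 ± 0.13 (adjusted p = 1.35e-06). For all 4 genes the CSE 1% arrays lay above every CSE 5% array, which the rule that named KRT10, S100A14 and FXYD3 required. Each of the 4 genes kept its call in the fit to 6 arrays.

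Of 12 genes of CEACAM adhesion molecules, mucins and trefoil peptides, 6 were lower and none higher (limma; 0 at an unadjusted p under 0.05), and the list median was -0.36 against -0.012 over all genes. The membrane mucin MUC16 had 6.44, 6.48 and 6.37 with CSE 5%, against 7.72, 7.65 and 7.45 with CSE 1%, a difference of -1.18 ± 0.10 (adjusted p = 1.29e-07). CEACAM5, a carcinoembryonic antigen and one of the brighter genes of the array, had 12.14, 12.06 and 12.09 with CSE 5%, against 12.88, 12.85 and 12.80 with CSE 1%, a difference of -0.74 ± 0.069 (adjusted p = 3.16e-07). MUC13 differed by -0.73 ± 0.065, CEACAM8 by -0.61 ± 0.10 and CEACAM6 by -0.24 ± 0.055 (adjusted p = 1.69e-07, 4.60e-04 and 0.0101). CEACAM genes are close relatives, and their probes may detect more than 1 of them. Of 10 keratins besides KRT10, 3 were lower and none higher (limma; 0 at an unadjusted p under 0.05), with a median of -0.24. The count lower ran between 0, without CSE 5% replicate 2 (limma; 7 lower at an unadjusted p under 0.05), and 4, without CSE 1% replicate 3. It was 1 without CSE 5% replicate 3, CSE 1% replicate 1 or CSE 1% replicate 2. KRT19, KRT7 and KRT8 are keratins of simple epithelia. KRT19 differed by -0.61 ± 0.15, KRT7 by -0.44 ± 0.11 and KRT8 by -0.21 ± 0.057 (adjusted p = 0.0213, 0.0160 and 0.0315). KRT19 lost its call when CSE 5% replicate 2 or 3 or CSE 1% replicate 1 or 2 was left out (adjusted p from 0.0572 to 0.176), KRT7 when CSE 5% replicate 2 or CSE 1% replicate 1 was left out (adjusted p from 0.0934 to 0.127) and KRT8 when CSE 5% replicate 1, 2 or 3 or CSE 1% replicate 1 or 2 was left out (adjusted p from 0.0541 to 0.186). KRT8 did not pass after a second quantile normalization either. Of 21 junction genes, 2 were lower (6 without CSE 1% replicate 3) and 3 higher, with a median of -0.13. The desmosomal plaque protein DSP was lower, at -0.48 ± 0.073, as was EPCAM, whereas the claudins CLDN2, CLDN1 and CLDN12 were higher by 0.97, 0.47 and 0.47 (adjusted p = 1.99e-04 for DSP and 1.20e-05, 0.00172 and 0.00274 for the claudins). CLDN1 and CLDN12 did not pass with the 9 control arrays in the fit. E-cadherin, CDH1, had 10.79, 10.92 and 11.001 with CSE 5%, against 11.06, 11.11 and 10.93 with CSE 1%, and the interval of its difference ran from -0.28 to 0.021 (adjusted p = 0.341). In the fit to the 6 arrays MUC16, CEACAM5, MUC13 and CLDN2 kept their calls and CEACAM8, CEACAM6, KRT19, KRT7, KRT8, DSP, CLDN1 and CLDN12 did not (adjusted p from 0.0868 to 0.434).

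Other genes with large differences downward are known from liver metabolism and from signalling. CPS1, the mitochondrial enzyme that starts the urea cycle, had 10.42, 10.47 and 10.53 with CSE 5%, against 11.63, 11.70 and 11.70 with CSE 1%, a difference of -1.20 ± 0.078 (adjusted p = 2.60e-09). HSD17B13, an enzyme of hepatic lipid droplets, had 5.19, 5.23 and 5.43 with CSE 5%, against 6.78, 7.02 and 7.12 with CSE 1%, and CES1, a carboxylesterase, had 8.54, 8.92 and 8.80 with CSE 5%, against 10.04, 9.84 and 9.83 with CSE 1%. They differed by -1.69 ± 0.15 and -1.15 ± 0.10, and neither pair of groups overlapped, which the rule that named them required. The olfactory receptor OR51E1 had 6.73, 7.08 and 6.76 with CSE 5%, against 8.14, 8.25 and 8.24 with CSE 1%, a difference of -1.36 ± 0.17. ST6GAL2, a sialyltransferase, differed by -1.16 ± 0.082 and KIT, the receptor of stem cell factor, by -1.14 ± 0.13 (adjusted p = 6.86e-09 and 7.20e-06). NTS, the precursor of neurotensin, had 6.15, 6.45 and 6.33 with CSE 5%, against 6.96, 7.73 and 8.78 with CSE 1%, with CSE 1% arrays almost 2 log2 units apart, a difference of -1.51 ± 0.31 (adjusted p = 0.00384). SCARNA9L, a small RNA of Cajal bodies, differed by -1.16 ± 0.23. When fitted to the 6 arrays alone, CPS1, HSD17B13, CES1, OR51E1, ST6GAL2, KIT and SCARNA9L kept their calls and NTS did not (adjusted p = 0.181).

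**Figure D3:**
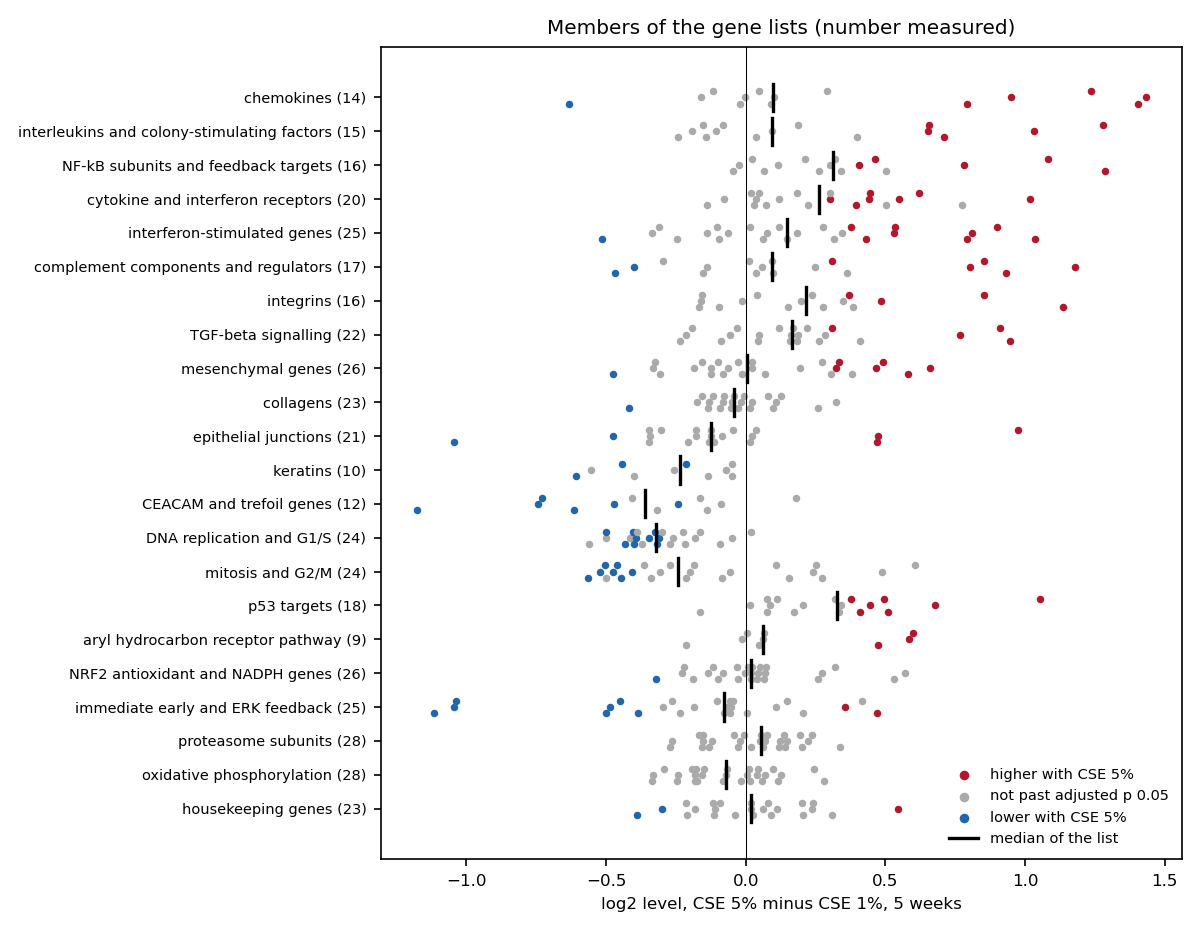
Each point is a measured member of a gene list (rows, with the number measured), at its log2 level with CSE 5% minus that with CSE 1% (x axis), coloured by its call at an adjusted p under 0.05, and the black bar is the median of the list. Lists of chemokines, cytokines and NF-kB targets hold members above 1 beside members at 0, whereas CEACAM, replication and p53 genes have medians of -0.36, -0.32 and 0.33.

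Mesenchymal genes were split. Of 26 on the list, 6 were higher (23.1%) and 1 was lower (3.85%), against 4.68% and 2.5% of all genes. The median was 0.0046, close to that of all genes. On leaving out 1 array, 4 or 5 were higher and between 0 and 4 lower (2 without CSE 5% replicate 2, 4 without CSE 1% replicate 3). In the fit to the 6 arrays none was higher and none lower. FN1, fibronectin, had 11.38, 11.38 and 11.47 with CSE 5%, against 10.89, 10.86 and 10.50 with CSE 1%, a difference of 0.66 ± 0.095 (adjusted p = 1.01e-04). VIM, the mesenchymal intermediate filament vimentin, had 10.99, 10.81 and 10.94 with CSE 5%, against 10.54, 10.38 and 10.36 with CSE 1%, a difference of 0.49 ± 0.084, and CDH2, N-cadherin, had 8.22, 7.90 and 8.07 with CSE 5%, against 7.52, 7.62 and 7.30 with CSE 1%, a difference of 0.58 ± 0.11 (adjusted p = 7.52e-04 and 0.00160). MMP2, a gelatinase, was higher by 0.47 (adjusted p = 0.0277), and its call was lost when CSE 5% replicate 1, 2 or 3 or CSE 1% replicate 2 or 3 was left out (adjusted p from 0.0508 to 0.109). TAGLN, an actin-binding protein of smooth muscle named as the member that was lower, differed by -0.48 ± 0.14 (adjusted p = 0.0470) and lost its call when CSE 5% replicate 1 or 3 or CSE 1% replicate 1 or 2 was left out (adjusted p from 0.0955 to 0.222). TAGLN did not pass either after cyclic loess, after a second quantile normalization or with the control arrays in the fit. Of 17 transcription factors of the epithelial and mesenchymal states, ZEB1, a repressor of E-cadherin, was higher and 2 were lower, and without CSE 1% replicate 3 there were 2 higher. ZEB1 had 8.90, 8.68 and 8.73 with CSE 5%, against 6.97, 7.68 and 8.11 with CSE 1%, a difference of 1.18 ± 0.19 that rested on widely spread CSE 1% arrays (adjusted p = 4.71e-04). The epithelial regulators KLF4 and OVOL2 differed by -0.63 ± 0.085 and -0.50 ± 0.095 (adjusted p = 5.19e-05 and 0.00216). With only the 6 arrays KLF4 kept its call and FN1, VIM, CDH2, MMP2, TAGLN, ZEB1 and OVOL2 did not (adjusted p from 0.0797 to 0.329).

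Of 22 genes of TGF-β signalling, 4 were higher and none lower (limma; 2 at an unadjusted p under 0.05), with a median of 0.17. The count higher ran between 3 and 6 (6 without CSE 1% replicate 2) on leaving out 1 array, and 2 were lower without CSE 1% replicate 3. TGFB2 had 8.92, 8.62 and 8.70 with CSE 5%, against 7.62, 7.97 and 7.81 with CSE 1%, a difference of 0.94 ± 0.11 (1.92-fold, adjusted p = 9.31e-06). TGFB1, the isoform most studied in fibrosis, had 9.19, 9.27 and 9.15 with CSE 5%, against 8.88, 8.39 and 8.05 with CSE 1%, a difference of 0.77 ± 0.14 (adjusted p = 0.00133). TGFBI, a matrix protein named for its induction by TGF-β, had 10.38, 10.29 and 10.30 with CSE 5%, against 9.64, 9.38 and 9.22 with CSE 1%, a difference of 0.91 ± 0.087 (adjusted p = 4.73e-07). SMURF2, a ligase that targets SMAD proteins, differed by 0.31 ± 0.084 and lost its call when CSE 5% replicate 1, 2 or 3 or CSE 1% replicate 1 was left out (adjusted p from 0.0553 to 0.192), and also with array weights, after centring on housekeeping genes and with the control arrays in the fit. The receptor TGFBR2 and the signal carriers SMAD3 and SMAD2 differed by 0.22 ± 0.068, 0.19 ± 0.099 and -0.21 ± 0.084 without passing the test (adjusted p = 0.0691, 0.318 and 0.161), and another transcript cluster of SMAD2 differed by 0.20 in the opposite direction. Of 16 integrins, 4 were higher and none lower (limma; 1 at an unadjusted p under 0.05), with a median of 0.22. Without CSE 5% replicate 1 there was 1, and without CSE 5% replicate 3 or CSE 1% replicate 1 there were 2, and 1 was lower without CSE 1% replicate 3. ITGB6, whose product pairs with αV to release TGF-β from its latent complex, had 8.64, 8.34 and 8.54 with CSE 5%, against 7.002, 7.51 and 7.61 with CSE 1%, a difference of 1.14 ± 0.14 (adjusted p = 2.17e-05). Its partner ITGAV had 10.85, 10.67 and 10.85 with CSE 5%, against 9.32, 10.04 and 10.45 with CSE 1%, with CSE 1% replicate 3 near the CSE 5% arrays, a difference of 0.85 ± 0.20 (adjusted p = 0.0146). ITGAV lost its call when CSE 5% replicate 1 or 3 or CSE 1% replicate 1 was left out (adjusted p from 0.0515 to 0.128). Fitted to 6 arrays, TGFB2, TGFBI and ITGB6 kept their calls and TGFB1, ITGAV and SMURF2 did not (adjusted p from 0.172 to 0.275).

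Collagens and laminins held 1 gene each that passed, both lower, where 2.5% of all genes were lower. Of 23 collagens this was COL12A1, with a difference of -0.42 ± 0.097 (adjusted p = 0.0118), and lost its call when CSE 5% replicate 2 or CSE 1% replicate 2 was left out (adjusted p from 0.0625 to 0.0755) and with the control arrays in the fit. There was also 1 collagen higher without CSE 1% replicate 3. Of 11 laminins and nidogens, the basement membrane protein NID2 passed, with 6.98, 6.75 and 6.67 with CSE 5%, against 7.74, 7.59 and 7.54 with CSE 1%, a difference of -0.82 ± 0.10 (adjusted p = 1.58e-05). The 22 matrix proteases and inhibitors held 4 higher and 1 lower, and 2 higher without any 1 of the CSE 5% arrays or without CSE 1% replicate 2. There were 2 lower without CSE 1% replicate 3. MMP7, matrilysin, had 12.04, 12.12 and 11.94 with CSE 5%, against 10.66, 10.88 and 11.18 with CSE 1%, a difference of 1.13 ± 0.096 (2.18-fold, adjusted p = 9.40e-08), whereas MMP9 had 5.84, 6.02 and 5.74 with CSE 5%, against 5.98, 5.98 and 5.77 with CSE 1%, levels that overlapped. The secreted proteases ADAMTS9 and ADAMTS1, which cut proteoglycans, stood on opposite sides. ADAMTS9 differed by 0.56 ± 0.084 and ADAMTS1 by -0.57 ± 0.089 (adjusted p = 1.63e-04 and 2.71e-04). Of 11 genes of plasminogen activation and thrombospondins, 3 were higher: the protease nexin SERPINE2 by 0.62, urokinase PLAU by 0.49 and the clotting inhibitor TFPI by 1.01 (adjusted p = 5.71e-04, 8.54e-04 and 0.00649). TFPI lost its call without CSE 1% replicate 1 (adjusted p = 0.0522). In the smallest fit NID2 and MMP7 kept their calls and COL12A1, ADAMTS9, ADAMTS1, SERPINE2, PLAU and TFPI did not (adjusted p from 0.0753 to 0.254).

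Some genes listed under BMP and activin signalling had large differences, in both directions. Of 26 genes of the BMP and activin arm, 4 were higher (2 without CSE 5% replicate 1) and 3 lower, with a median of 0.0017. The BMP antagonist GREM1, gremlin, had 7.95, 7.64 and 7.65 with CSE 5%, against 6.75, 6.60 and 6.61 with CSE 1%, a difference of 1.09 ± 0.12 (adjusted p = 2.35e-06). FSTL1, a secreted follistatin-like protein, had 8.68, 8.63 and 8.87 with CSE 5%, against 7.56, 7.88 and 7.61 with CSE 1%, a difference of 1.04 ± 0.11. FSTL4, of the same family, had 6.82, 6.64 and 6.63 with CSE 5%, against 8.33, 8.19 and 8.05 with CSE 1%, a difference of -1.50 ± 0.095 (adjusted p = 2.60e-09). The ligand BMP6 was lower too, at -0.73 ± 0.10 (adjusted p = 8.61e-05). Among 33 Wnt genes 1 was higher (2 without CSE 5% replicate 1, CSE 1% replicate 1 or CSE 1% replicate 3) and 1 lower. The secreted Wnt inhibitor DKK1 was higher by 0.41 (adjusted p = 0.00418), and AXIN1, a scaffold of the complex that destroys β-catenin, was at -0.32 ± 0.092 and lost its call when CSE 5% replicate 1 or 2 or CSE 1% replicate 1 or 2 was left out (adjusted p from 0.102 to 0.240). AXIN1 did not pass either with array weights or with the control arrays in the fit. In the fit to the 6 arrays GREM1, FSTL1, FSTL4 and BMP6 kept their calls and DKK1 and AXIN1 did not (adjusted p from 0.178 to 0.291).

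Genes of cell division that passed the test were lower with CSE 5%, by about 0.3 to 0.6 on the log2 scale. Of 24 genes of DNA replication and the G1/S transition, 9 were lower and none higher (limma; 0 at an unadjusted p under 0.05), with a median of -0.32. Of 24 genes of mitosis and G2/M, 7 were lower and none higher (limma; 0 at an unadjusted p under 0.05), with a median of -0.24. The mean level over the 24 replication genes was 8.84, 8.71 and 8.75 with CSE 5%, against 9.07, 9.09 and 9.07 with CSE 1%, without overlap. The mean over the 24 mitosis genes was 8.84, 8.70 and 8.81 with CSE 5%, against 8.67, 8.92 and 9.24 with CSE 1%, so CSE 1% replicate 1 lay below all 3 CSE 5% arrays and the lists differ in this respect. TYMS, thymidylate synthase, had 9.88, 9.86 and 9.79 with CSE 5%, against 10.27, 10.32 and 10.25 with CSE 1%, a difference of -0.43 ± 0.081 (adjusted p = 0.00171). MCM6, a subunit of the replicative helicase, had 8.45, 8.36 and 8.39 with CSE 5%, against 8.76, 8.85 and 8.80 with CSE 1%, a difference of -0.40 ± 0.083, and MCM3 of the same complex differed by -0.32 ± 0.066 (adjusted p = 0.00446 and 0.00464). The groups did not overlap for any of the 3 genes, which was also so for 448 of the 460 genes called lower. The mitotic kinase PLK1 had 10.35, 10.39 and 10.44 with CSE 5%, against 11.23, 10.96 and 10.68 with CSE 1%, a difference of -0.57 ± 0.13 (adjusted p = 0.00852), and lost its call without CSE 1% replicate 1 (adjusted p = 0.0806). The proliferation marker MKI67 differed by -0.51 ± 0.11 and lost its call when CSE 5% replicate 2 or CSE 1% replicate 2 was left out (adjusted p from 0.0559 to 0.0658). Leaving out CSE 5% replicate 2 or CSE 1% replicate 1 gave 5 replication genes lower, and leaving out CSE 1% replicate 1 gave 2 mitosis genes lower, CSE 1% replicate 2 gave 3 and CSE 5% replicate 1 gave 4. Without CSE 1% replicate 3 there were 2 mitosis genes higher and 8 lower. In the fit to the 6 arrays none of TYMS, MCM6, MCM3, PLK1 and MKI67 kept its call (adjusted p from 0.0969 to 0.247). Of 18 targets of p53, which arrests the cell cycle on damage, 7 were higher and none lower (limma; 0 at an unadjusted p under 0.05), with a median of 0.33, and 4 were higher without CSE 5% replicate 1, CSE 5% replicate 3 or CSE 1% replicate 1. The kinase PLK2 had 9.45, 9.54 and 9.66 with CSE 5%, against 8.59, 8.54 and 8.35 with CSE 1%, a difference of 1.05 ± 0.097 (adjusted p = 2.61e-07). The RNA-binding protein ZMAT3 differed by 0.50 ± 0.089 and TP53INP1, a cofactor of p53, by 0.51 ± 0.095 (adjusted p = 0.00113 and 0.00172), and with 6 arrays PLK2 kept its call and ZMAT3 and TP53INP1 did not (adjusted p from 0.131 to 0.187).

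Genes known to respond to smoke constituents divided by pathway. Of 9 genes of the aryl hydrocarbon receptor pathway, 3 were higher and none lower (limma; 1 at an unadjusted p under 0.05), with a median of 0.060. TIPARP, a repressor that the receptor induces, had 11.86, 11.96 and 12.03 with CSE 5%, against 11.35, 11.40 and 11.35 with CSE 1%, a difference of 0.58 ± 0.059 (adjusted p = 9.94e-07). The hydrocarbon-oxidising enzyme CYP1A1 had 6.92, 6.92 and 6.79 with CSE 5%, against 6.15, 6.48 and 6.20 with CSE 1%, a difference of 0.60 ± 0.11, and CYP1B1 differed by 0.47 ± 0.12 (adjusted p = 0.00157 and 0.0213). CYP1B1 lost its call when CSE 5% replicate 1 or 3 or CSE 1% replicate 1 was left out (adjusted p from 0.0675 to 0.171). Of 26 NRF2 targets, 1 was lower and none higher (limma; 5 at an unadjusted p under 0.05), with a median of 0.018. NQO1, a quinone reductase of high level, had 13.28, 13.33 and 13.35 with CSE 5%, against 13.21, 13.28 and 13.28 with CSE 1%, and the interval of its difference ran from -0.038 to 0.17. GCLM of glutathione synthesis had 9.50, 9.54 and 9.52 with CSE 5%, against 8.62, 8.97 and 9.38 with CSE 1%, a difference of 0.53 ± 0.16 (adjusted p = 0.0508), and SRXN1, sulfiredoxin, was the member that passed, at -0.32 ± 0.065 (adjusted p = 0.00397). Without CSE 1% replicate 1 there was 1 NRF2 gene higher, and without CSE 1% replicate 3 there were 4 higher and 4 lower. In the fit without CSE 1% replicate 3, 1906 of all 18417 genes were higher and 1037 lower. Of 14 genes of heme and iron handling, 4 were higher and none lower (limma; 0 at an unadjusted p under 0.05), with a median of 0.13. The metalloreductases STEAP1 and STEAP2 differed by 1.01 ± 0.12 and 1.02 ± 0.17, and the iron exporter SLC40A1 by 0.70 ± 0.10 (adjusted p = 7.90e-06, 5.10e-04 and 1.38e-04). The 15 heat shock chaperones held 1 gene that passed (2 higher and 2 lower without CSE 1% replicate 3), the small chaperone CRYAB, with 7.30, 7.10 and 7.12 with CSE 5%, against 8.40, 8.14 and 8.13 with CSE 1%, a difference of -1.05 ± 0.13 (adjusted p = 1.58e-05). Of 20 genes of ATF4 and the unfolded protein response, 3 were higher and 1 lower (2 lower without CSE 5% replicate 1 or CSE 1% replicate 3), among them the endoplasmic reticulum co-chaperone DNAJB9 at 0.73 ± 0.12 and the transcription factor ATF3 at -0.58 ± 0.12 (adjusted p = 3.13e-04 and 0.00474). Of 9 metallothionein and zinc exporter genes none passed (limma; 0 higher and 0 lower at an unadjusted p under 0.05), and their median was 0.12. In the fit to the 6 arrays TIPARP, CRYAB and STEAP1 kept their calls and CYP1A1, CYP1B1, SRXN1, STEAP2, SLC40A1, DNAJB9 and ATF3 did not (adjusted p from 0.0700 to 0.253).

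Immediate early genes, which cells switch on within minutes of a growth or stress signal, were more often lower than higher with CSE 5%. Of 25 such genes and ERK feedback genes, 7 were lower and 2 higher, with a median of -0.079. DUSP1, a phosphatase that ends MAP kinase signals, had 9.08, 8.81 and 9.12 with CSE 5%, against 10.30, 10.12 and 9.94 with CSE 1%, a difference of -1.12 ± 0.14 (adjusted p = 1.23e-05). The transcription factor EGR1 had 7.26, 7.47 and 7.50 with CSE 5%, against 8.62, 8.48 and 8.24 with CSE 1%, and the nuclear receptor NR4A1 had 7.68, 7.72 and 7.72 with CSE 5%, against 8.78, 8.75 and 8.72 with CSE 1%. They differed by -1.04 ± 0.15 and -1.04 ± 0.094. Their groups did not overlap, which was also so for 448 of the 460 genes called lower. The related receptors NR4A2 and NR4A3 differed by -0.49 ± 0.09 and -0.50 ± 0.093 (adjusted p = 0.00152 and 0.00161). Among 11 EGF receptors and ligands, 3 were higher and 2 lower (1 lower without any array but CSE 1% replicate 3, 3 without that array), with the ligands TGFA and NRG1 at 0.68 ± 0.086 and 0.57 ± 0.097 and the ligand HBEGF at -0.62 ± 0.11 (adjusted p = 1.89e-05, 6.82e-04 and 0.00149). NRG1 did not pass with the control arrays in the fit. Fitted to the 6 arrays alone, DUSP1, EGR1, NR4A1 and HBEGF kept their calls and NR4A2, NR4A3, TGFA and NRG1 did not (adjusted p from 0.0592 to 0.193).

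In metabolism, of 20 genes of cholesterol and fatty acid synthesis 4 were lower and none higher (limma; 0 at an unadjusted p under 0.05), with a median of -0.18. Without CSE 1% replicate 1 none was lower (limma; 7 at an unadjusted p under 0.05), without CSE 5% replicate 2 there was 1, without CSE 5% replicate 3 or CSE 1% replicate 2 there were 2, and without CSE 1% replicate 3 there were 7. FASN, fatty acid synthase, had 9.49, 9.31 and 9.42 with CSE 5%, against 10.30, 10.03 and 9.56 with CSE 1%, a difference of -0.56 ± 0.13 (adjusted p = 0.0160), and MVD of the mevalonate pathway differed by -0.41 ± 0.094 (adjusted p = 0.0106). FASN lost its call when CSE 5% replicate 2 or CSE 1% replicate 1 or 2 was left out (adjusted p from 0.0632 to 0.142) and with the control arrays in the fit, and MVD without CSE 1% replicate 1 (adjusted p = 0.0878). Sterol exporters were higher, ABCA1 with 6.81, 6.92 and 6.94 with CSE 5%, against 6.03, 5.91 and 6.07 with CSE 1%, a difference of 0.89 ± 0.10, and ABCG1 at 0.57 ± 0.098 (adjusted p = 7.90e-06 and 7.52e-04), 2 of the 3 that were higher among 16 ABC transporters, of which 2 were lower without CSE 1% replicate 3. Of 26 genes of glycolysis and the hypoxia response, 5 were higher (2 without CSE 5% replicate 1 or CSE 1% replicate 1, 3 without CSE 5% replicate 2, CSE 5% replicate 3 or CSE 1% replicate 2) and 3 lower, with a median of 0.094. The glucose-sensing arrestins ARRDC4 and TXNIP differed by -0.58 ± 0.098 and -0.38 ± 0.079, and PFKFB3, which sets the pace of glycolysis, by 0.56 ± 0.10 (adjusted p = 6.55e-04, 0.00443 and 0.00129). With 6 arrays ABCA1 and ARRDC4 kept their calls and ABCG1, TXNIP, PFKFB3, FASN and MVD did not (adjusted p from 0.120 to 0.297). Of 16 alveolar type I and II genes, 2 were higher and 1 lower. The caveolar protein CAV1 and the water channel AQP3 differed by 0.56 ± 0.084 and 0.52 ± 0.094, and the membrane protein EMP2 by -0.51 ± 0.10 (adjusted p = 1.63e-04, 0.00119 and 0.00342), and in the fit to 6 arrays none of CAV1, AQP3 and EMP2 kept its call (adjusted p from 0.0778 to 0.156).

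Of 28 proteasome subunits none passed (limma; 2 higher and 3 lower at an unadjusted p under 0.05), and of 28 genes of oxidative phosphorylation none passed (limma; 0 higher and 7 lower at an unadjusted p under 0.05), with medians of 0.053 and -0.069. Of 8 B7 family ligands, which bind checkpoint receptors on T cells, none passed (limma; 2 higher and 0 lower at an unadjusted p under 0.05), with a median of 0.034. Of the 30 centrosome and Golgi genes none passed (limma; 11 higher and 0 lower at an unadjusted p under 0.05), with a median of 0.38, and without CSE 1% replicate 3 there were 16 higher. Without CSE 5% replicate 2 there was 1 proteasome subunit lower, without CSE 5% replicate 3 there was 1 higher, and without CSE 1% replicate 2 there was 1 gene of oxidative phosphorylation lower. Without CSE 1% replicate 3, 2 proteasome subunits were higher and 1 lower, and 1 gene of oxidative phosphorylation was higher and 3 were lower. That fit called 1906 of all genes higher and 1037 lower. The 23 cytochrome P450 genes outside the CYP1 family held 4 higher and 1 lower, with a median of -0.053 (2 higher without CSE 5% replicate 1 or CSE 1% replicate 1, and none lower without any 1 array other than CSE 1% replicate 3). The 14 genes of prostaglandin synthesis and breakdown held 1 of each, with a median of 0.061, and the 1 higher was lost without any single array except CSE 1% replicate 3. Of 23 housekeeping genes 1 was higher and 2 were lower, with a median of 0.020 (3 of each without CSE 1% replicate 3, and 1 or none lower without any other array). Of 16 genes that the study names in its text for these arrays, 11 were higher and none lower (limma; 1 at an unadjusted p under 0.05), with a median of 0.62. Since the study chose them on these samples, the count is not independent evidence of their direction. The study's table of top deregulated genes holds further genes described here, such as CLEC4E, QPCT, C3 and FSTL4, and the same limit holds for them.

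The same 2 concentrations were also compared at 1 and 3 weeks, on arrays that enter the 5-week comparison only through the shared estimate of the spread. The labels do not say whether the cultures of later weeks continued those of earlier weeks, so overlap between weeks is not independent evidence. At 1 week 1109 genes (6.02%) were higher with CSE 5% and 1131 (6.14%) lower. At 3 weeks the numbers were 1216 (6.6%) and 809 (4.39%). Of the 861 genes higher at 5 weeks, 305 (35.4%, and 27.5% of those higher at 1 week) were also higher at 1 week, 492 (57.1%, and 40.5% of those higher at 3 weeks) at 3 weeks, and 219 at both. Of the 460 genes lower at 5 weeks, 211 (45.9%, and 18.7% of those at 1 week) were lower at 1 week, 228 (49.6%, and 28.2% of those at 3 weeks) at 3 weeks, and 141 at both. The opposite direction was called for 48 of the 861 and 16 of the 460 at 1 week, and for 3 and 1 at 3 weeks. KRT10 differed by -1.70, -1.75 and -2.03 at 1, 3 and 5 weeks, and CCL2 by 1.72, 1.95 and 1.43, so both were far from 0 at every time. Differences at 5 weeks minus 1 week, tested directly, passed for 892 genes, 625 (3.39%) of them positive and 267 (1.45%) negative. Differences at 5 weeks minus 3 weeks passed for 49 genes, 38 (0.206%) positive and 11 (0.0597%) negative. Without CSE 1% replicate 3 the change since 1 week passed for 1522 genes. Without CSE 5% replicate 1, CSE 5% replicate 2 or CSE 1% replicate 2 the change since 3 weeks passed for 19, 31 or 30 genes.

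Some inflammatory genes differed at 5 weeks and little at 1 week. CXCL8 differed by 0.21, 1.42 and 1.40 at 1, 3 and 5 weeks, and the 5-week difference exceeded that at 1 week by 1.20 ± 0.18 (adjusted p = 1.73e-04). CXCL5 differed by -0.17, 0.82 and 0.95, TGFB2 by -0.092, 0.84 and 0.94 and CDH6 by 0.18, 1.19 and 1.77 (adjusted p of the change since 1 week 3.57e-06, 2.81e-04 and 7.58e-06). CP changed direction, with -1.60, 1.14 and 1.71, a change of 3.31 ± 0.39 (adjusted p = 1.06e-05). CD24, a surface glycoprotein of epithelia, and APOBEC3B, a DNA cytidine deaminase, also changed sign. CD24 differed by -0.96, 0.75 and 0.87, a change since 1 week of 1.83 ± 0.15, and APOBEC3B by -1.62, 0.24 and 0.74, a change of 2.36 ± 0.15 (adjusted p = 8.53e-08 and 2.16e-09). SCD, a fatty acid desaturase, and DTL, an adaptor of a replication-linked ubiquitin ligase, were far lower with CSE 5% at 1 week and did not pass at 5 weeks, SCD with -1.89, -0.24 and 0.08 and DTL with -1.96, -0.50 and -0.16 at the 3 times (adjusted p of the change since 1 week 1.53e-09 and 8.53e-08). FXYD3 differed by -0.42, -0.31 and -1.25 and FN1 by 0.82, 0.007 and 0.66 (adjusted p of the change since 3 weeks 0.0268 and 0.0423). The change of FXYD3 since 3 weeks did not pass without any 1 of the 6 arrays (adjusted p up to 0.0725), and that of FN1 did not pass without any 1 array other than CSE 1% replicate 1 (adjusted p up to 0.108). FN1 did not pass either with replicates as a block, fixed or random (adjusted p = 0.0691 and 0.0521), with the control arrays in the fit (0.0766) or after centring on housekeeping genes (0.0557), and FXYD3 did not pass with array weights (0.0584). TXNIP changed sign, with 0.30, 0.44 and -0.38 (adjusted p of the change since 3 weeks 0.00119).

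**Figure D4:**
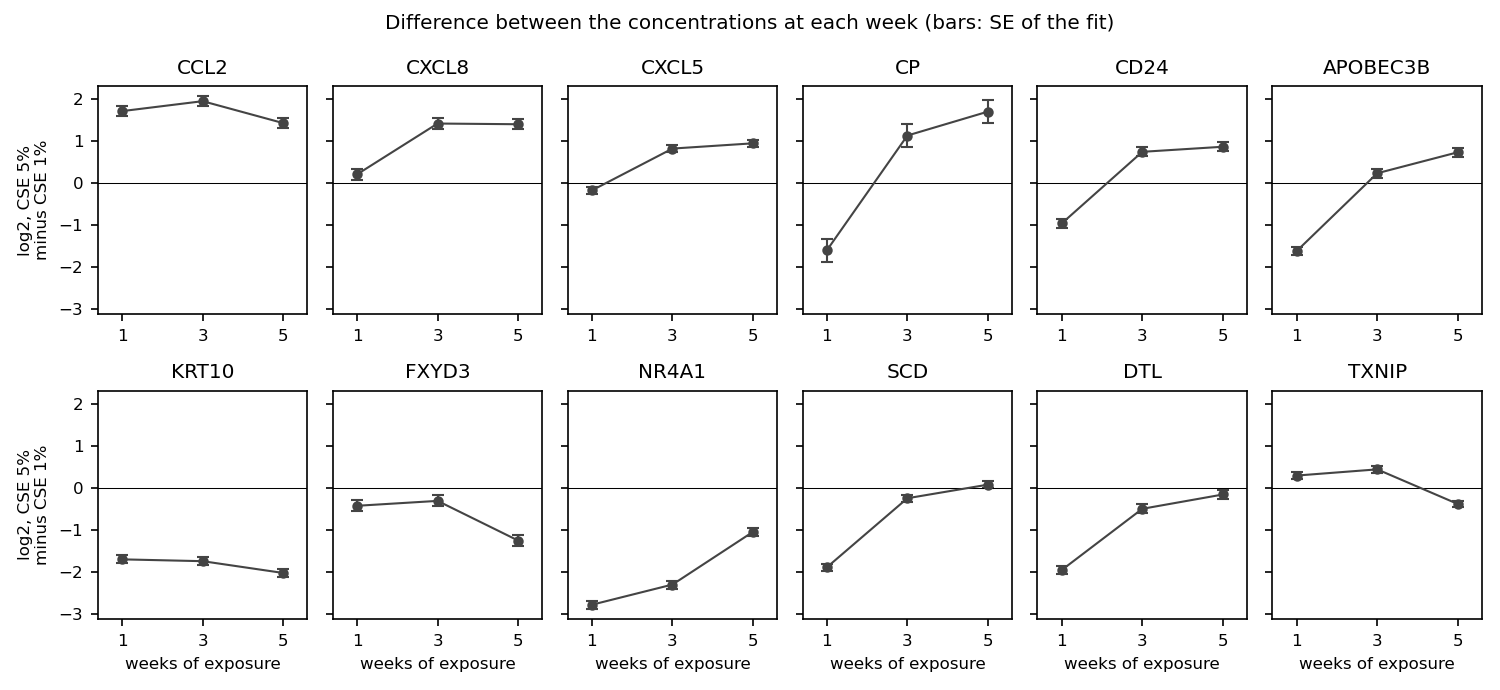
Log2 level with CSE 5% minus that with CSE 1% (y axis) at weeks 1, 3 and 5 (x axis) for 12 genes, with the SE of the fit. CCL2 and KRT10 keep their sides throughout, CXCL8 and CXCL5 leave 0 after week 1, CP, CD24 and APOBEC3B cross 0, and NR4A1, SCD and DTL are lowest at week 1.

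The third concentration of the series, CSE 10%, was also measured at 5 weeks, and mean levels at 1%, 5% and 10% are given side by side without a test (SD, n = 3 each). The genes shown are examples. CCL2 had 10.49 ± 0.065, 11.92 ± 0.11 and 10.93 ± 0.17, CXCL8 9.69 ± 0.29, 11.09 ± 0.07 and 10.50 ± 0.15, CLEC4E 5.42 ± 0.14, 7.35 ± 0.38 and 5.63 ± 0.39 and CDH6 8.17 ± 0.24, 9.94 ± 0.11 and 8.39 ± 0.26, so each of these was highest at 5%. FN1 had 10.75 ± 0.22, 11.41 ± 0.049 and 9.93 ± 0.042, CDH2 7.48 ± 0.16, 8.06 ± 0.16 and 6.93 ± 0.19 and CFB 8.75 ± 0.095, 9.68 ± 0.079 and 8.22 ± 0.17, highest at 5% and lowest at 10%. KRT10 had 11.09 ± 0.039, 9.06 ± 0.11 and 7.81 ± 0.19, EPCAM 10.48 ± 0.28, 9.44 ± 0.019 and 8.42 ± 0.19, CEACAM5 12.84 ± 0.042, 12.10 ± 0.041 and 10.65 ± 0.18 and FXYD3 10.95 ± 0.054, 9.69 ± 0.053 and 8.13 ± 0.33, lowest at 10%. NAV3 had 6.32 ± 0.12, 7.89 ± 0.073 and 9.07 ± 0.23 and TGFBI 9.42 ± 0.21, 10.32 ± 0.045 and 10.85 ± 0.026, highest at 10%.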

How the data were processed

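Gene expression was measured in A549 cells on Human Gene 1.0 ST arrays, 3 for each concentration and time. The authors normalized the arrays with RMA (R 2.11.0 per the submitters' processing notes) and deposited log2 values, 1 for each of 33297 transcript clusters per array. Gene symbols came from the platform annotation. Of the transcript clusters 19460 had 1 symbol, 1754 several and 12083 none, and the cluster with the highest mean stood for each of 18417 genes. limma 3.58.1 in R 4.3.3 was fitted to 27 exposed arrays with 9 group means (residual degrees of freedom 18, prior 3.77). Transcript clusters were counted at a log2 difference above 1 and B above 0, and single genes at p under 0.05 after Benjamini-Hochberg adjustment across the 33297 transcript clusters. The fit was tested on simulated data. The text names genes from the 15 largest differences in each direction without overlap, the 5 smallest p of each of 46 lists, those the study names in its text and the 10 smallest p of each contrast between weeks. CD55, CFD, CCL28, TAGLN, IL6, IL1B, the marker genes and the motifs were added after their values were seen. The members and lists were chosen with earlier results of these data known. Promoter sequences came from RefSeq. Alternatives were other sets of arrays, normalizations, weights, blocks and leaving out each array.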

Additional observations from a re-analysis of the deposited data

Results flagged for a closer look

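The difference between CSE 5% and CSE 1% was not the same at 5 weeks as at 1 week for 892 genes, by the contrast of the 2 differences in limma. SCD changed by 1.97 ± 0.12 (SE), INSIG1, a brake on sterol synthesis, by 1.70 ± 0.11 and ACAT2, an enzyme of the mevalonate pathway, by 1.39 ± 0.11. At 1, 3 and 5 weeks INSIG1 differed by -1.92, -1.19 and -0.21 and ACAT2 by -1.84, -0.85 and -0.45, so both were lower with CSE 5% by more than 1 on the log2 scale at 1 week. The glucose transporter SLC2A3 changed by 1.80 ± 0.12 and the prolyl hydroxylase EGLN3 by 1.28 ± 0.096. APOBEC3B changed by 2.36 ± 0.15, CD24 by 1.83 ± 0.15, DTL by 1.80 ± 0.15, NR4A1 by 1.74 ± 0.13 and PLK2 by 1.71 ± 0.14. Of genes described above, CP changed by 3.31 ± 0.39, CDH6 by 1.59 ± 0.18, CXCL8 by 1.20 ± 0.18, CXCL5 by 1.12 ± 0.12, TGFB2 by 1.04 ± 0.16 and FXYD3 by -0.83 ± 0.18.

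The difference was not the same at 5 weeks as at 3 weeks for 49 genes. The nuclear receptors of the NR4A family, which respond to stimuli within minutes, all changed upward, NR4A2 by 1.22 ± 0.13, NR4A1 by 1.26 ± 0.13 and NR4A3 by 0.95 ± 0.13. At 1, 3 and 5 weeks NR4A2 differed by -2.04, -1.71 and -0.49 and NR4A3 by -1.05, -1.45 and -0.50, lower with CSE 5% each time. The transcription factors KLF4 and BHLHE40 changed by 0.97 ± 0.12 and 0.74 ± 0.096, INSIG1 by 0.98 ± 0.11, ACSS2, which makes acetyl-CoA, by 0.77 ± 0.11, the vesicle GTPase RAB3B by 1.02 ± 0.15, the phosphate transporter SLC20A1 by 0.59 ± 0.093 and FN1 by 0.65 ± 0.13. TXNIP and FXYD3 changed downward, by -0.83 ± 0.11 and -0.95 ± 0.18. Each value rests on 3 arrays in each of the 4 groups it combines.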

How the results depend on the processing

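The 146 called genes named here kept their direction under each alternative that measured them, and the 60% brightest transcript clusters measured 137 of the 146. Leaving out each of the 6 arrays in turn left 125 of the 146 called, and 62 of 146 were called under each alternative that measured them, the same 62 as in the fit to the 6 arrays alone. That fit called 102 genes higher and 44 lower, and the 9 exposed arrays at 5 weeks gave 281 and 127. The fits that left out 1 array gave between 470 and 1906 genes higher and between 225 and 1037 lower, between 50 and 195 transcript clusters higher and between 21 and 29 lower, between 671 and 1522 genes that changed since 1 week and between 19 and 64 that changed since 3 weeks. Array weights gave 1387 genes that changed since 1 week. The replicate number as a fixed block gave 802 genes higher and 383 lower, and as a random block 809 and 402. Arrays of the same number in the 2 groups showed no shared deviation (r = -0.107, -0.0732 and -0.00809). With 3 arrays per group this cannot tell whether a number marks a shared experiment, and the labels do not say. The block changed no call of a named gene other than those of AXIN1 (both blocks), TAGLN (random), ITGAM (fixed) and FN1 in its change since 3 weeks (both blocks). All 36 arrays, cyclic loess, a second quantile normalization, centring on 23 housekeeping genes, the 60% brightest transcript clusters, trended and robust variance, the mean of a gene's transcript clusters and stricter or looser thresholds kept every count they could give within 1.5 times. Of values without a call, SCD was at -0.018 with array weights and between -0.0029 (without CSE 5% replicate 1) and 0.132 on leaving out 1 array, PTPRC at 0.026 with array weights and between -0.0422 and 0.051, IL6 between -0.047 (without CSE 5% replicate 2) and 0.136, and MMP9 between -0.118 and 0.021 (without CSE 5% replicate 3), so that each changed sign. PTPRC was also positive, at 0.018, without CSE 1% replicate 3. Of the changes between weeks named here, FXYD3 and FN1 since 3 weeks lost their calls under some alternatives and the others kept them. The number of arrays limits the precision, and an exact permutation test of 3 arrays against 3 cannot go below 0.1. Why a count moved with an array was not tested.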

Other observations

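Replication-dependent histone genes, a list drawn up after their values were seen, were lower with CSE 5% in 12 of 56 measured (21.4%, against 2.5% of all genes). None was higher (limma; 1 at an unadjusted p under 0.05), and the median was -0.43. Their mean level was 8.12, 8.07 and 8.02 with CSE 5%, against 8.70, 8.47 and 8.28 with CSE 1%. The groups did not overlap, and CSE 1% replicate 1 was highest. H2BC3 had 7.64, 7.78 and 7.84 with CSE 5%, against 9.27, 8.75 and 8.49 with CSE 1%, a difference of -1.09 ± 0.25 (adjusted p = 0.0104), and lost its call when CSE 5% replicate 1 or CSE 1% replicate 1 was left out (adjusted p from 0.0550 to 0.0895). Histone genes of a cluster share much sequence, and their probes may detect more than 1 of them.

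Small nucleolar and Cajal body RNAs, also listed after their values were seen, held 10 lower and 1 higher of 192 measured, with a median of -0.19. These were 5.21% and 0.521%, against 2.5% and 4.68% of all genes. Neither this list nor the histone list was counted in the fits that left out 1 array. The mean level of the 192 RNAs was 7.11, 7.08 and 7.10 with CSE 5%, against 7.50, 7.18 and 7.18 with CSE 1%, and CSE 1% replicate 1 stood apart from the other 5 arrays. SCARNA9L, the largest difference among them, is described above.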
